A study of Mus musculus with 6 samples.

Results

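Expression of 10 genes of the p53 pathway other than Cdkn1a was examined in the lateral ganglionic eminence (LGE), the part of the embryonic ventral forebrain that produces striatal projection neurons. The 10 are Trp53, which encodes p53 itself, and 9 targets of p53: Mdm2, Ccng1, Phlda3, Bbc3, Pmaip1, Eda2r, Sesn2, Trp53inp1 and Zmat3. They were picked by name from the 29659 genes of the table, after Phlda3 had been seen to stand higher in the mutant libraries, so that the values of Phlda3 itself are given as a description with no test. The question was whether the other p53 genes moved with it. RNA was sequenced from E16.5 C57BL/6 mice in 2 groups of 3 libraries. The Zfhx3-CKO group carried Dlx5/6-Cre and floxed Zfhx3 (Dlx5/6-Cre; Zfhx3F/F), and the control group carried Dlx5/6-Cre alone. Both groups thus express Cre, a transgenic recombinase, in cells of the ganglionic eminences, while other cells of the dissected pieces keep Zfhx3 intact. The labels do not say whether a library is 1 embryo or a pool. Errors and p-values thus rest on variation between libraries of a group, whether for technical or biological reasons.

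p53 is a transcription factor that is held at a low level by Mdm2, a ubiquitin ligase and itself a p53 target, and that accumulates after DNA damage and other stresses. It then switches on genes that stop the cell cycle, trigger apoptosis or adjust metabolism. In the embryonic brain p53 is best known for the death of neural progenitors after DNA damage or mitotic errors.

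The libraries held 18960574 to 20311799 counts in the Zfhx3-CKO group and 15938590 to 16753355 in the control group. Zfhx3, the deleted gene, counted over its whole length, had 98.8, 87.4 and 99.4 CPM (counts scaled by library total to CPM, TMM-adjusted) in Zfhx3-CKO and 134, 135 and 101 CPM in control libraries. It did not pass (log2 fold change -0.37, adjusted p 0.091 in edgeR's quasi-likelihood test), and did without control library 3 (-0.50, adjusted p 0.0259), with DESeq2 (adjusted p 0.0468) and without a low-count filter (adjusted p 0.0308); over all alternatives the adjusted p reached 0.29. The LGE was recognisable in both groups, with the homeobox gene Dlx1 at 751 to 902 CPM in Zfhx3-CKO and 726 to 814 CPM in control libraries. Of 10 LGE markers 3 fell (Bcl11b, Foxp1 and Gad2) and 0 rose in edgeR's test, where 3.49% of all tested genes were called lower and 3.87% higher. The 10 summed to 3843 to 4121 CPM in Zfhx3-CKO and 4316 to 4629 CPM in control libraries. The mitochondrial share of counts was 1.44% to 1.5% in Zfhx3-CKO and 2.27% to 2.34% in control libraries, and erythroid markers (5 genes) summed to 702, 2554 and 810 CPM in Zfhx3-CKO and 711 to 1081 CPM in control libraries. The sexes differ between the groups: Xist was at 2874 to 3057 CPM in Zfhx3-CKO and at 0.299 to 0.568 CPM in control libraries, and the Y-linked Ddx3y at 0 to 0.053 CPM in Zfhx3-CKO and 77.8 to 88.6 CPM in control libraries, so sex and genotype cannot be told apart in any result here. The summed level of 10 cortical excitatory neuron markers was 189, 49.0 and 272 CPM in Zfhx3-CKO libraries 1, 2 and 3 and 48.5 to 52.0 CPM in control libraries. It was high in Zfhx3-CKO libraries 1 and 3 and near the controls in library 2, and 0 of the 10 markers were at 0 in every library. Markers of the neighbouring medial ganglionic eminence (5 genes) summed to 324, 436 and 472 CPM in Zfhx3-CKO and 259, 292 and 292 CPM in control libraries. In edgeR's test 3 of these 5 were called higher (Lhx8, Nkx2-1 and Nkx6-2), as were 3 of 9 progenitor markers (Hes1, Mki67 and Top2a). The same test called 1 of 9 tested cortical markers higher (Bhlhe22) and 1 of 6 microglia markers lower (P2ry12). The part of these marker levels and of the mitochondrial share in the results was not tested.

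Phlda3 was 3.10 times as abundant in the Zfhx3-CKO LGE, while the other 9 genes did not pass the threshold. In edgeR's quasi-likelihood test, with Benjamini-Hochberg adjustment over all 16551 genes tested, 0 of those 9 had an adjusted p under 0.05, where 3.87% of all tested genes were called higher and 3.49% lower. At an unadjusted p under 0.05, 4 of the 9 were higher (Ccng1, Bbc3, Sesn2 and Eda2r) and 0 lower, where 13.5% of all tested genes were higher and 12.1% lower. DESeq2 called 1 of the 9 higher (Bbc3, adjusted p 0.0453) and 0 lower, where 6.13% of its genes were called higher and 4.79% lower. The limma-trend test on log2(FPKM + 1) called 0 of the 9, where 3.33% of its genes were called higher and 3.4% lower. The groups did not overlap, with Zfhx3-CKO higher, for Bbc3 and Eda2r among the 9, and for 0 with Zfhx3-CKO lower, where 15.5% and 15.9% of all tested genes did so. All 10 genes passed the filter on low counts. The median log2 fold change was 0.13 over the 10 genes, 0.00 over the 9 without Phlda3 and 0.00 over all tested genes. Because this is bulk tissue, a lower or higher level cannot be split into a change in the number of cells of a type and a change of RNA per cell.

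**Figure D1:**
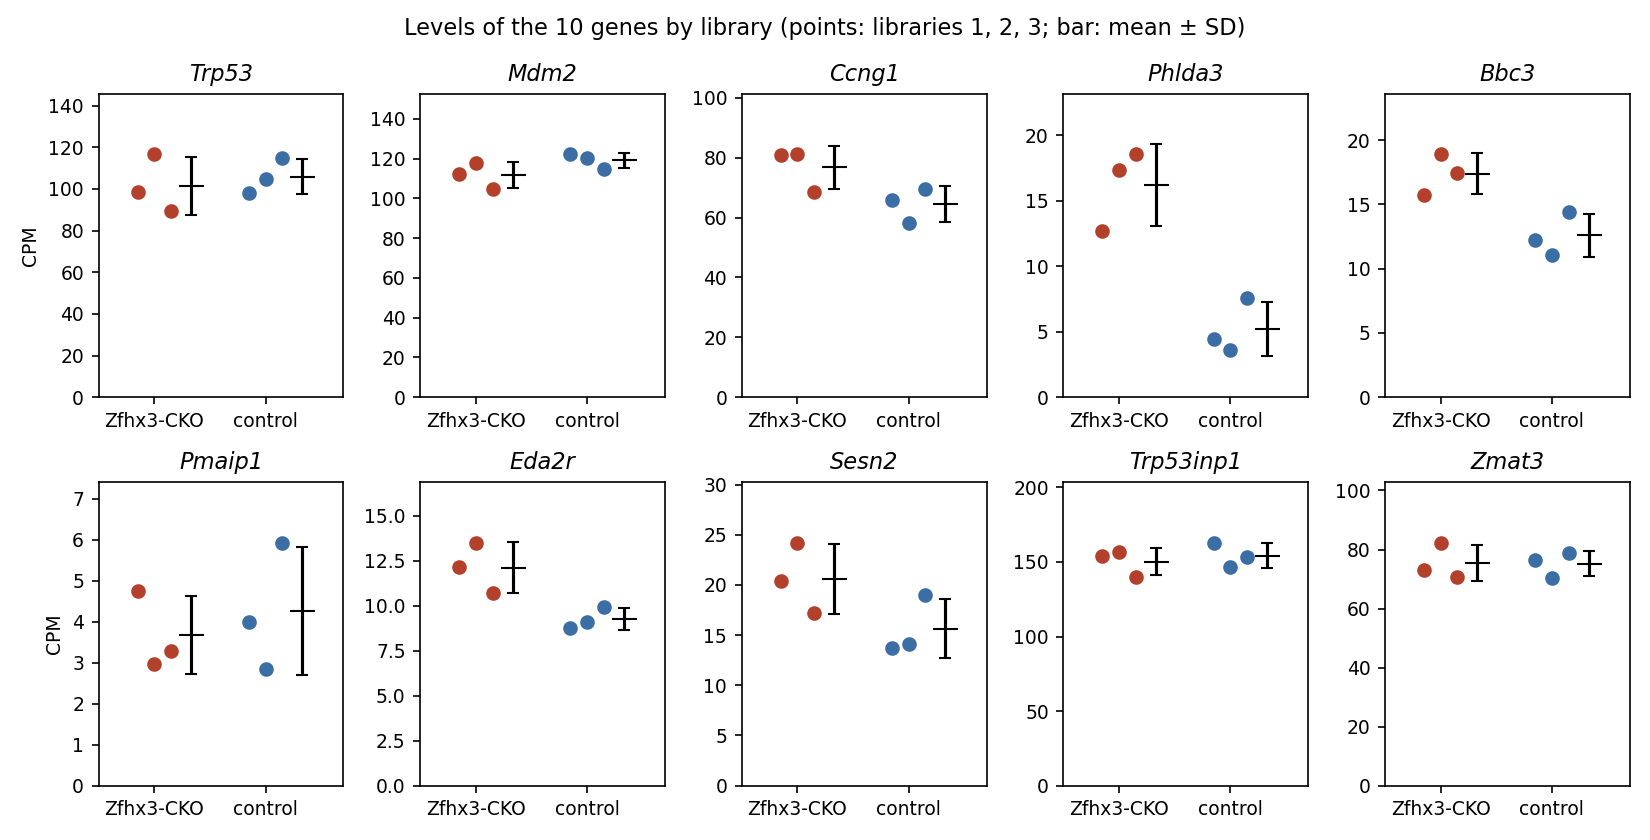
CPM (linear axes from 0) of the 10 genes in each library, Zfhx3-CKO on the left and control on the right of each panel; points are libraries and the bars give mean ± SD (n = 3). The 3 Zfhx3-CKO libraries lie above all 3 control libraries for Phlda3, Bbc3 and Eda2r, and the groups overlap for the other 7 genes.

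Neither Trp53 nor its main inhibitor passed the test. Trp53 (ENSMUSG00000059552, chromosome 11, 69580359 to 69591873, plus strand, GRCm38) was at 98.4, 117 and 89.2 CPM in Zfhx3-CKO libraries 1, 2 and 3, against 97.9, 105 and 115 CPM in control libraries 1, 2 and 3. The groups overlapped, and the lowest and the highest value were both Zfhx3-CKO libraries. The log2 fold change was -0.06 (95% interval -0.31 to 0.18, adjusted p 0.762 in edgeR's test). Mdm2, the ubiquitin ligase that marks p53 for degradation, was at 112, 118 and 105 CPM in Zfhx3-CKO libraries and at 122, 120.2 and 115 CPM in control libraries. Here too the groups overlapped, with a log2 fold change of -0.09 (95% interval -0.25 to 0.07, adjusted p 0.438 in edgeR's test). Wrap53, a gene next to Trp53 that yields a natural antisense transcript of it in human cells, averaged 21.1 ± 2.04 CPM in Zfhx3-CKO and 18.3 ± 2.24 CPM in control libraries (SD, n = 3 each; adjusted p 0.335 in edgeR's test).

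Phlda3 encodes a small protein with a pleckstrin homology domain that competes with the kinase Akt for membrane lipids and so dampens survival signalling. Phlda3 (ENSMUSG00000041801, chromosome 1, 135766119 to 135769136, plus strand) was at 12.7, 17.4 and 18.6 CPM in Zfhx3-CKO libraries 1, 2 and 3, against 4.48, 3.60 and 7.54 CPM in control libraries 1, 2 and 3. All Zfhx3-CKO values were above all control values, and control library 3 was at 187% of the mean of the other controls. The means were 16.2 ± 3.10 CPM in Zfhx3-CKO and 5.21 ± 2.07 CPM in control libraries (SD, n = 3 each), a 3.10-fold difference (log2 fold change 1.63, SE 0.27). Zfhx3-CKO library 2 on its own gave a log2 fold change of 1.73 against the controls. In that library cortical markers were near the control level. Its markers of the medial ganglionic eminence (436 CPM, controls 259 to 292) and its erythroid markers (2554 CPM, controls 711 to 1081) were above the controls. The part of these markers in the Phlda3 values was not tested. Phlda1, a relative, was at 4.15 ± 0.584 CPM in Zfhx3-CKO and 4.35 ± 0.614 CPM in control libraries (SD, n = 3 each; adjusted p 0.87 in edgeR's test), and Phlda2 had at most 0.0513 CPM in any library.

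Genes of the apoptosis arm gave mixed values. Bbc3 encodes Puma, a BH3-only protein that sets off mitochondrial apoptosis. It was at 15.7, 18.9 and 17.5 CPM in Zfhx3-CKO libraries, against 12.2, 11.1 and 14.4 CPM in control libraries. The groups did not overlap, and the lowest Zfhx3-CKO library was close to the highest control library. The log2 fold change was 0.46 (SE 0.14, adjusted p 0.0775 in edgeR's test); the authors' deposited table lists Bbc3 at 0.41 with adjusted p 0.0417, not marked as significant. Pmaip1, which encodes the related BH3-only protein Noxa, had 97, 56 and 64 counts, or 2.97 to 4.75 CPM, in Zfhx3-CKO libraries, against 67, 45 and 99 counts, or 2.84 to 5.93 CPM, in control libraries. The groups overlapped across nearly their whole range at these low counts, and the log2 fold change of -0.21 had a wide 95% interval of -0.90 to 0.47 (adjusted p 0.702 in edgeR's test). Eda2r, an X-linked receptor of the tumour necrosis factor family that binds ectodysplasin A2, was at 12.2, 13.5 and 10.7 CPM in Zfhx3-CKO libraries, against 8.78, 9.08 and 9.94 CPM in control libraries. Its groups did not overlap either, and the log2 fold change was 0.39 (SE 0.14, adjusted p 0.124 in edgeR's test). For this X-linked gene too, sex and genotype cannot be told apart.

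Ccng1 encodes cyclin G1, which recruits a phosphatase to Mdm2. It was at 80.8, 81.1 and 68.5 CPM in Zfhx3-CKO libraries, against 65.8, 58.1 and 69.6 CPM in control libraries. Zfhx3-CKO libraries 1 and 2 lay above every control and library 3 within the control range. The log2 fold change was 0.25 (SE 0.10, adjusted p 0.147 in edgeR's test), and without Zfhx3-CKO library 3 it was 0.33 and passed (adjusted p 0.0395).

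Sesn2 and Trp53inp1 belong to the stress and metabolism arm, and Zmat3 to RNA processing. Sesn2 encodes sestrin 2, which restrains the growth kinase complex mTORC1 and is also induced by other stresses. It was at 20.4, 24.2 and 17.2 CPM in Zfhx3-CKO libraries, against 13.7, 14.1 and 19.0 CPM in control libraries. Control library 3 lay above Zfhx3-CKO library 3, so the groups overlapped (log2 fold change 0.40, SE 0.17, adjusted p 0.193 in edgeR's test). Trp53inp1, which encodes a nuclear and autophagy protein that promotes p53 activity, was at 154, 157 and 140 CPM in Zfhx3-CKO libraries, against 163, 146 and 154 CPM in control libraries (log2 fold change -0.04, 95% interval -0.21 to 0.13). Zmat3 encodes a zinc-finger RNA-binding protein that acts in splicing, and was at 73.2, 82.3 and 70.8 CPM in Zfhx3-CKO libraries, against 76.4, 70.5 and 78.7 CPM in control libraries (log2 fold change 0.00, 95% interval -0.18 to 0.19). The groups overlapped for both genes, and neither passed edgeR's test (adjusted p 0.786 for Trp53inp1 and 0.981 for Zmat3).

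On the length-scaled FPKM scale the levels fell into a high and a low set. In control libraries Trp53 was highest (26.2 ± 2.23 FPKM), followed by Trp53inp1 (23.8 ± 1.32), Mdm2 (23.4 ± 0.626) and Ccng1 (18.4 ± 1.78 FPKM; SD, n = 3). Trp53, Trp53inp1 and Mdm2 did not differ from each other beyond their spread. The low set ran from Zmat3 (6.58 ± 0.405 FPKM) over Bbc3 (5.93 ± 0.834), Sesn2 (4.50 ± 0.878) and Phlda3 (3.35 ± 1.35) to Pmaip1 (1.61 ± 0.600) and Eda2r (1.57 ± 0.110 FPKM; SD, n = 3), and each gene in it overlapped its neighbour within 1 SD of both means. In Zfhx3-CKO libraries the same 4 genes were highest, at 21.8 FPKM (Ccng1) or more on average. Phlda3 was then the fifth of the 10, at 10.4 ± 1.92 FPKM (SD, n = 3), against the eighth in control libraries.

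**Figure D2:**
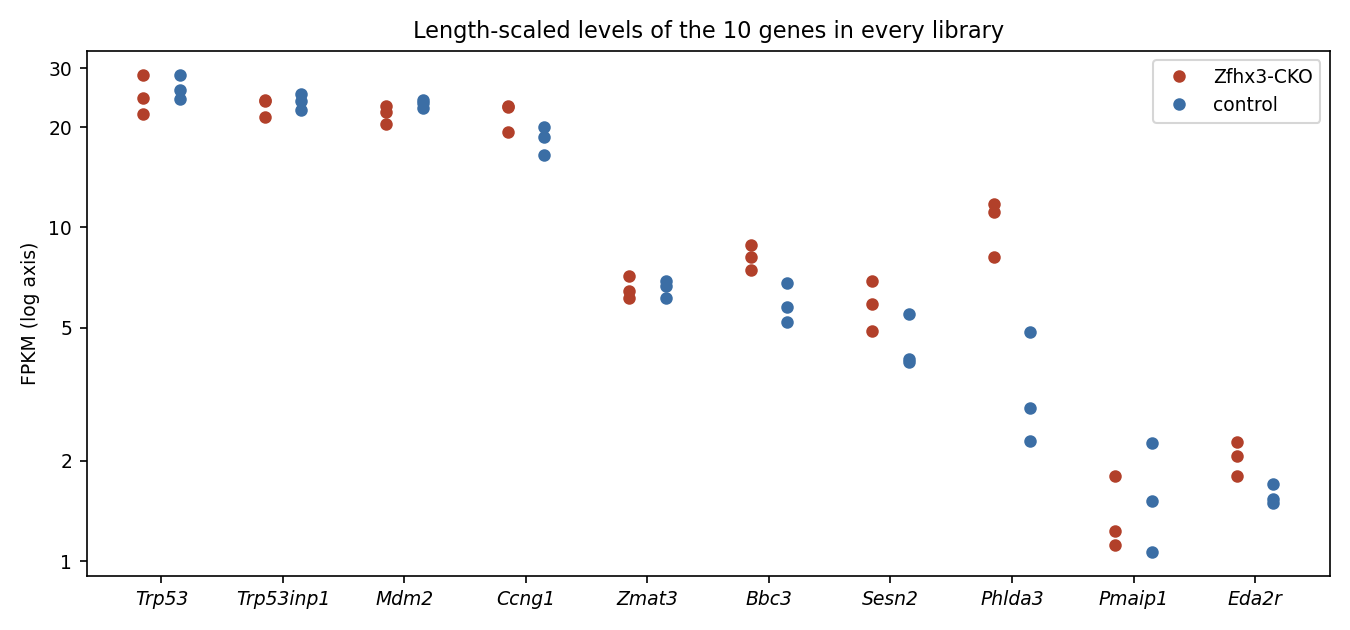
FPKM (log axis) of the 10 genes, ordered by their control mean, with Zfhx3-CKO points left of control points and 1 point per library. Trp53, Trp53inp1, Mdm2 and Ccng1 form the high set near 20 FPKM, and the Zfhx3-CKO libraries lie above all control libraries for Phlda3 (8.18 to 11.8 FPKM in Zfhx3-CKO, 2.29 to 4.87 FPKM in control), Bbc3 (7.44 to 8.86 FPKM in Zfhx3-CKO, 5.20 to 6.84 FPKM in control) and Eda2r (1.80 to 2.28 FPKM in Zfhx3-CKO, 1.49 to 1.7 FPKM in control).

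For most of these genes library 3 was at an end of its group, the high end among controls and the low end among Zfhx3-CKO libraries. In control library 3, 8 of the 10 genes had their highest control value; Mdm2 and Trp53inp1, which were highest in control library 1, were the exceptions. Among Zfhx3-CKO libraries, 7 of the 10 were lowest in library 3, the exceptions being Phlda3, Bbc3 and Pmaip1. As log2 differences from the control mean, the median of the 9 genes without Phlda3 was 0.22, 0.14 and -0.09 in Zfhx3-CKO libraries 1, 2 and 3 and -0.02, -0.09 and 0.11 in control libraries 1, 2 and 3, so the groups overlapped on it. Progenitor markers (9 genes) summed to 3851, 4082 and 3100 CPM in Zfhx3-CKO libraries 1, 2 and 3 and to 2879, 2937 and 3244 CPM in control libraries 1, 2 and 3. In both measures Zfhx3-CKO library 3 was the lowest of its group and control library 3 the highest of its group. The part of progenitor content in these values was not tested. The 7 immediate early genes, which respond to handling, summed to 90.6 to 108 CPM in Zfhx3-CKO and 82.7 to 102 CPM in control libraries.

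**Figure D3:**
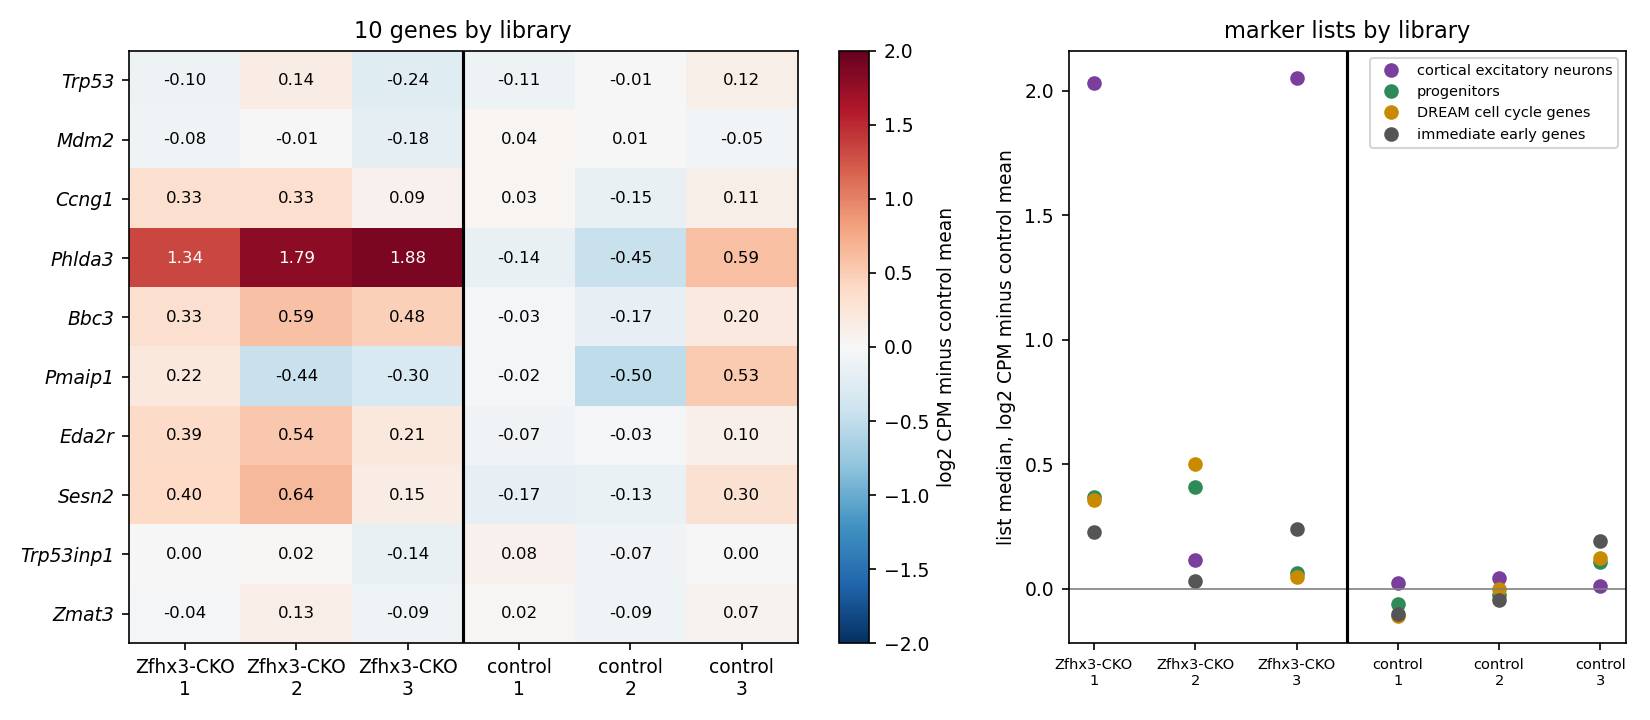
Left, log2 CPM of each of the 10 genes minus its control mean, by library (red higher, blue lower, Zfhx3-CKO left of the line). Right, the median of the same quantity for 4 gene lists, where cortical excitatory neuron markers are raised in Zfhx3-CKO libraries 1 and 3 and the progenitor and cell cycle lists are lowest in Zfhx3-CKO library 3 among the Zfhx3-CKO libraries.

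The wider set of p53 targets held calls in both directions. Of 52 other known targets 48 were tested, and 3 rose, 1 fell and 44 did not pass in edgeR's test, where 3.87% of all tested genes were called higher and 3.49% lower. At an unadjusted p under 0.05, 9 were higher and 4 lower, where 13.5% and 12.1% of all tested genes were. Their median log2 fold change was 0.12, against 0.00 over all tested genes, and 29 of the 48 were above 0, where 50.1% of all tested genes were. The cyclin-dependent kinase inhibitor gene Cdkn1a rose, with 37.5, 39.2 and 41.0 CPM in Zfhx3-CKO libraries, against 22.2, 23.1 and 28.2 CPM in control libraries (log2 fold change 0.68, SE 0.11, adjusted p 0.0104). Plk3, a stress-induced polo-like kinase, rose with 9.85, 12.4 and 16.4 CPM in Zfhx3-CKO libraries, against 7.89, 7.57 and 6.94 CPM in control libraries (log2 fold change 0.79, SE 0.19, adjusted p 0.0473). Its relative Plk2, which is also induced by neuronal activity, fell, with 94.3, 72.1 and 144 CPM in Zfhx3-CKO libraries, against 219, 198 and 180 CPM in control libraries (log2 fold change -0.94, SE 0.22, adjusted p 0.037). The groups did not overlap for these 3 genes. Among the 48 tested targets they did not overlap for 11 with Zfhx3-CKO higher and for 5 with it lower. Of all tested genes, 15.5% and 15.9% did so. With 1 control library left out, Cdkn1a had adjusted p 0.0681 (without library 1) and 0.0696 (without library 2), and the largest values over single omissions were 0.154 for Plk2 and 0.155 for Plk3. These 3 genes were the calls among 15 tested genes of cell cycle arrest and DNA repair.

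Of 13 tested cell death targets 1 rose and 0 fell in edgeR's test, where 3.87% of all tested genes were called higher and 3.49% lower. Aen, an apoptosis-enhancing nuclease, was at 72.7, 78.0 and 65.3 CPM in Zfhx3-CKO libraries, against 51.2, 49.9 and 56.8 CPM in control libraries (log2 fold change 0.45, SE 0.09, adjusted p 0.0225 in edgeR's test); the largest adjusted p with 1 library left out was 0.111. The next smallest p-values belonged to Perp, a membrane protein of desmosomes, at 0.870 ± 0.122 CPM in Zfhx3-CKO and 1.73 ± 0.573 CPM in control libraries (SD, n = 3 each; adjusted p 0.104), and Siva1, a pro-apoptotic adaptor, at 0.47 on the log2 scale (adjusted p 0.12). The list median was -0.01. Of 20 tested targets with metabolic or other roles 0 passed in edgeR's test. There were 3 higher and 1 lower at an unadjusted p under 0.05, where 13.5% and 12.1% of all tested genes were. DESeq2 called 1 higher (Pltp) and 1 lower (Abhd4), where 6.13% and 4.79% of its genes were, and limma-trend called 0 of the 20 targets. Their median was 0.13, and the smallest p-values were those of Pltp, a lipid transfer protein (log2 fold change 0.47, adjusted p 0.0679), Abhd4, a lipid hydrolase (-0.49, adjusted p 0.109) and Ddit4, an mTORC1 inhibitor (0.42, adjusted p 0.115).

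**Figure D4:**
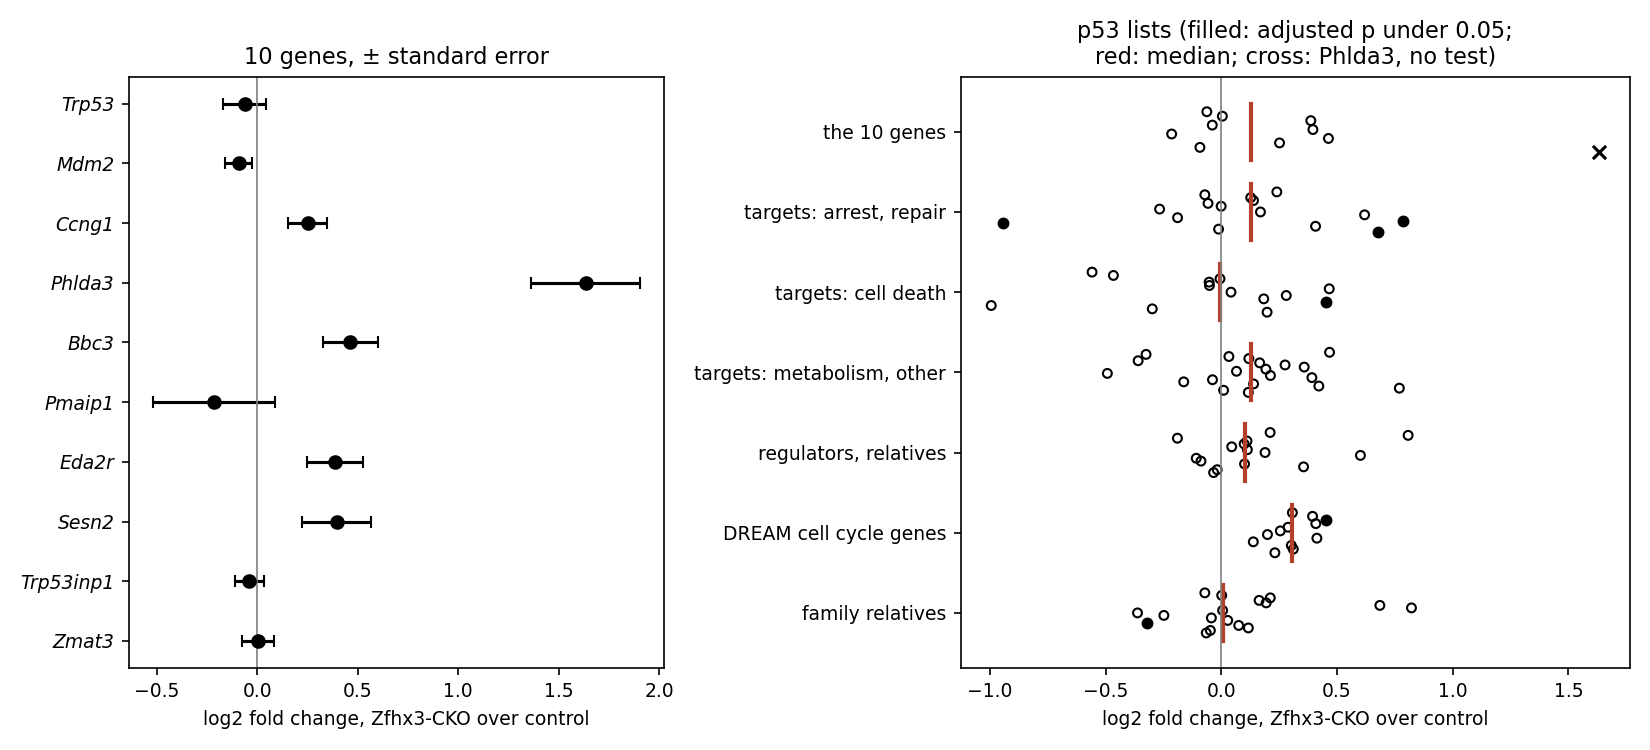
Left, log2 fold change of Zfhx3-CKO over control with its standard error for the 10 genes. Right, the same value (1 symbol per tested gene) for the 10 genes and 6 related lists, filled where the adjusted p is under 0.05, with a red line at each list's median; Phlda3 is drawn as a cross since it was chosen for its difference. The cell cycle list lies wholly above 0, at a median of 0.30, where 50.1% of all tested genes are above 0.

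Genes that act on p53, or are its relatives, were also compared. Of 15 tested regulators 0 passed in edgeR's test, where 3.87% of all tested genes were called higher and 3.49% lower. There were 2 higher and 1 lower at an unadjusted p under 0.05, where 13.5% and 12.1% of all tested genes were. DESeq2 called 2 higher (Atm and Hipk2), where 6.13% of its genes were, and limma-trend called 0. The DNA damage kinase Atm was at 81.0 ± 4.88 CPM in Zfhx3-CKO and 63.3 ± 7.47 CPM in control libraries (SD, n = 3 each; adjusted p 0.0623). Hipk2, a kinase that phosphorylates p53 at a site tied to apoptosis, was at 177, 186 and 177 CPM in Zfhx3-CKO and 137, 136 and 82.4 CPM in control libraries (adjusted p 0.0697), with control library 3 far below the other controls. Crebbp, an acetyltransferase gene, differed by -0.19 on the log2 scale (adjusted p 0.149). Cdkn2a, whose Arf product blocks Mdm2, had at most 0.049 CPM in any library. Of 17 tested relatives of the 10 genes 1 fell (Trp53inp2) and 0 rose in edgeR's test, where 3.49% of all tested genes were called lower and 3.87% higher. Trp53inp2, an autophagy protein, was at 167 ± 13.4 CPM in Zfhx3-CKO and 209 ± 11.2 CPM in control libraries (SD, n = 3 each). Its log2 fold change was -0.32 (adjusted p 0.0449 in edgeR's test). With any 1 library left out Trp53inp2 did not pass, up to adjusted p 0.181. Zmat5, a zinc-finger gene, came next at 0.69 on the log2 scale (adjusted p 0.136), then the receptor gene Tnfrsf19 at -0.25 (adjusted p 0.2).

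Activated p53 represses many cell cycle genes through p21, the product of Cdkn1a, and the DREAM repressor complex. All 12 such genes tested had a log2 fold change above 0 (median 0.30), where 50.1% of all tested genes did. There were 7 higher and 0 lower at an unadjusted p under 0.05, where 13.5% and 12.1% of all tested genes were. In edgeR's test 1 passed (Mybl2), where 3.87% of all tested genes were called higher. Mybl2, a transcription factor of dividing cells, was at 58.4 ± 8.52 CPM in Zfhx3-CKO and 42.7 ± 0.942 CPM in control libraries (SD, n = 3 each). Its log2 fold change was 0.45 (adjusted p 0.0442 in edgeR's test, up to 0.159 with 1 library left out). DESeq2 called 3 higher (Mybl2, Bub1 and Foxm1), where 6.13% of its genes were, and limma-trend called 0. Bub1, a mitotic checkpoint kinase, was 0.29 higher on the log2 scale (adjusted p 0.0615) and Foxm1, a mitotic transcription factor, 0.39 higher (adjusted p 0.0672). The 12 genes summed to 1322, 1465 and 1060 CPM in Zfhx3-CKO libraries 1, 2 and 3 and to 951, 1018 and 1117 CPM in control libraries 1, 2 and 3. Zfhx3-CKO library 3 thus lay within the control range, as it did for the progenitor markers, and the part of progenitor content was not tested.

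Promoter windows of Pmaip1, Trp53inp1 and Zmat3 were not examined, whether or not RefSeq holds them. Windows of the other 7 of the 10 genes, from 250 bases before to 50 bases after each RNA start, came from RefSeq (GRCm38.p6). They were searched for the p53 half-site by its exact consensus, and for the full site of 20 bases, as a pair of half-sites without spacer, both with the CNNG core and with at most 3 mismatches in all; the consensus reads alike on both strands, and the full-site search includes pairs of exact half-sites. An exact half-site lay in 8.36% and a full site in 1.38% of all 32851 promoter windows. The 4 windows below belong to the gene with the largest difference and to 3 genes whose window holds a full site; capitals mark full sites.
Phlda3 promoter: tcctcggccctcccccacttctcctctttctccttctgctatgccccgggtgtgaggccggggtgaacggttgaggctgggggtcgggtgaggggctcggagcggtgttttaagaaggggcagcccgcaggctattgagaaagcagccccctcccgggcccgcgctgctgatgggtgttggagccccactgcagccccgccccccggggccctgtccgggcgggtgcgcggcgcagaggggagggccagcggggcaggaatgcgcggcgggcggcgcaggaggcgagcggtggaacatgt
Bbc3 promoter: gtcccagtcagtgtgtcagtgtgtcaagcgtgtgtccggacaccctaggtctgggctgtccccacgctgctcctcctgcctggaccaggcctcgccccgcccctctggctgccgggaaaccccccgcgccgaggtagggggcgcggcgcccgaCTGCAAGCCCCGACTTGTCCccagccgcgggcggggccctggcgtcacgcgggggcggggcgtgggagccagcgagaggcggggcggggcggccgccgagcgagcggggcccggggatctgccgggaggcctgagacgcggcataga
Ccng1 promoter: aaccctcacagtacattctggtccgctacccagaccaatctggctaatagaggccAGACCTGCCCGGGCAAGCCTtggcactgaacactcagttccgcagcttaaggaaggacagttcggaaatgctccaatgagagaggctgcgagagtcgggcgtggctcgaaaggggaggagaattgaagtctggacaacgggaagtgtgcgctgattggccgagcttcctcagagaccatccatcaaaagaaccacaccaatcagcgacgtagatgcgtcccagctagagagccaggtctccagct
Trp53 promoter: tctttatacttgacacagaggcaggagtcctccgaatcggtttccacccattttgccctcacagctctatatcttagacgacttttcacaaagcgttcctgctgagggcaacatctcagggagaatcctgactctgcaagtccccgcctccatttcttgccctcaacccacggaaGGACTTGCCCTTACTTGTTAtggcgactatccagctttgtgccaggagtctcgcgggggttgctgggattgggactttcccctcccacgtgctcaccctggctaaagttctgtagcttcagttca
The Phlda3 window (chr1:135765835-135766134, plus strand) held no exact half-site and no full site. It ends in gaacatgt, which fits the start of the half-site consensus, and the bases after this end were not searched. The Bbc3 window (chr7:16309333-16309632, plus strand) held a full site with 3 mismatches that starts 97 bases before the RNA start, the Ccng1 window (chr11:40755237-40755536, minus strand) one with 1 mismatch at 195 bases before it, and the Trp53 window (chr11:69580109-69580408, plus strand) one with 3 mismatches at 75 bases before it. The other Bbc3 windows, of which there were 2, held neither kind of site. The full sites of the Ccng1 and Trp53 windows each contained 1 exact half-site, and that of the Bbc3 window contained none. The Mdm2 window held 1 exact half-site and no full site, and the Sesn2 and Eda2r windows held neither. A match is a run of letters and does not show binding, and sites outside these windows, or cut by their ends, were not searched.

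Likeness to Phlda3 was the Pearson correlation of log2 CPM over the 6 libraries, for 11063 genes with at least 5 CPM on average. Genes with predicted or clone-based names, and pseudogenes by name, were left out of these. The most alike were Eif1b, Igfbp7, Vapa, Marc2 and Masp1 (r from 0.987 to 0.990). Of these Igfbp7, a secreted insulin-like growth factor binding protein, differed most, at 23.6, 25.6 and 28.9 CPM in Zfhx3-CKO libraries, against 8.84, 7.38 and 11.8 CPM in control libraries. These values share the libraries and their group difference, and are a description of pattern only.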

How the data were processed

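RNA-seq of 3 Zfhx3-CKO and 3 control LGE libraries was analysed from gene tables. Per the file headers, the authors deposited read counts and FPKM values per gene and library, with their own log2 fold changes and p-values. Tools listed in the submitters' processing notes are HISAT2, StringTie, edgeR and bcl2fastq 2.17.1.14, with the builds GRCm38.p4 and mm10; the annotation release and strand setting are not given in the sources used here. Short column names of the full table were tied to samples by group word and number, and the 6 count columns equal those of the shorter table over its 3726 genes. Of the per-sample columns, 0 were left unused. In 25 cases a symbol altered by a spreadsheet was restored from the gene ID.

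The deposited counts were fitted with edgeR 4.0.16 in R 4.3.3 (TMM scaling, filterByExpr with a minimum count of 10, quasi-likelihood test, Benjamini-Hochberg adjustment over 16551 genes; 13108 were left out). Intervals are 95% and unadjusted. DESeq2 1.42.0 on the counts and limma-trend 3.58.1 on log2(FPKM + 1), keeping genes that reached 1 FPKM in 3 libraries, were alternatives, with other scalings, filters, a replicate block and single omissions. Log2 fold changes from FPKM understate changes of low genes. The scripts were tested on simulated data. The 10 genes and all lists were chosen with earlier results of these data known. From each related list the 3 genes with the smallest p-values were named; Wrap53, Phlda1, Phlda2, Cdkn2a and the marker genes named were chosen after their values were seen.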

Additional observations from a re-analysis of the deposited data

How the results depend on the processing

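Of 445 single-gene values recomputed over 15 alternatives, 367 kept direction and side of the threshold, 38 lost the call, 29 gained it and 11 changed sign. Of the 9 genes without Phlda3, DESeq2 called Bbc3 higher (0 in edgeR) and single omissions called Ccng1 (without Zfhx3-CKO library 3). Counts over all 10 include Phlda3, which prompted the choice, and are a description only: 2 with DESeq2 (1 in edgeR), and 0 (without control library 1 or 2) to 2 over single omissions. DESeq2 called 4 other p53 targets higher and 2 lower (3 and 1 in edgeR). Of all genes it called 1014 higher and 793 lower (640 and 578 in edgeR). Without a low-count filter, 4 other targets were higher and 2 lower, where 1075 of all genes were higher and 786 lower. With Zfhx3-CKO library 2 alone against the controls, Trp53inp1 (0.022) and Trp53 (0.14 on the log2 scale) changed sign. In that fit 8 of the 10 genes, Phlda3 included, were above 0 (6 with all libraries). The median log2 fold change was 0.24 over the 10 genes, 0.063 over the other targets and -0.013 over all tested genes. With limma-trend on log2(FPKM + 0.1), 2 other targets were higher and 0 lower, where 433 of all genes were higher and 447 lower. Zmat3, at 0.00, became -0.00022 with library totals only, -0.00088 with log2(FPKM + 1) and -0.0011 with log2(FPKM + 0.1). Over omissions of 1 library, 0 to 6 other targets were called higher and 0 to 2 lower, and 156 to 1082 genes higher and 131 to 1014 lower. Log2 fold changes ran from -0.44 to 0.10 for Pmaip1, -0.068 to 0.012 for Trp53inp1, -0.059 to 0.049 for Zmat3 and -0.17 to 0.023 for Trp53. The cause of these shifts was not tested. Pmaip1 was not tested with at least 5 CPM in 3 libraries.

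Replicate numbers did not pair the libraries: deviations of same-numbered libraries correlated at -0.03, -0.08 and -0.25. With the replicate block, 1 other target was higher (3 without it), 0 lower (1 without it), and 176 genes were higher and 136 lower (640 and 578 without it). Low counts limit Pmaip1, whose interval is the widest of the 10 genes.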
